A study of Mus musculus with 2 samples.

Results

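The homeobox genes Emx2 and Meis2 were examined in mesenchymal stromal cells of the mouse that carry or lack Dicer, the enzyme that trims precursor hairpins into mature microRNAs. Every listed event was taken that lay between 59515000 and 59560000 on chromosome 19 (the Emx2 window, 45 kb) or between 115680000 and 115910000 on chromosome 2 (the Meis2 window, 230 kb), in mouse build mm9. These windows held 20 of the 21418 events in the 6 deposited lists, 8 at Emx2 and 12 at Meis2. An event is a point at which the authors' software placed enrichment in chromatin immunoprecipitation sequencing, with the reads of both genotypes. The compared groups were Dicer KO and Dicer WT cells, both monoclonal immortalized lines grown in Alpha-MEM with fetal bovine serum and called fibroblasts in the sample titles. The labels describe H3K27ac alone, with 1 sample for KO and 1 for WT. Each list holds a single value per event and genotype, for 3 marks in all, so the spread between replicates is unknown and no test between genotypes could be made. Because each line is monoclonal, genotype and clone cannot be told apart. The windows were chosen from these same reads, so all values at Emx2 and Meis2 are descriptions.

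Emx2 encodes a transcription factor of the empty spiracles family, known for its roles in the cerebral cortex and in the urogenital tract. Meis2 belongs to the TALE class of homeodomain proteins, which bind DNA together with PBX and HOX proteins and are known from the proximal limb, the heart and the cranial neural crest. H3K4me3 (trimethylated lysine 4 of histone H3) marks promoters, above all those rich in CpG. H3K27ac (acetylated lysine 27) marks active promoters and enhancers, and H3K36me3 (trimethylated lysine 36) is laid down along gene bodies by an enzyme that travels with elongating RNA polymerase.

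The promoter sequences are shown because H3K4me3 is tied to CpG-rich promoters and was listed at both genes. They are the 250 bases before the gene's start in the RefSeq promoter table (GRCm38.p6, on the strand of the gene), 5′ to 3′, with each CpG in capitals.
Emx2: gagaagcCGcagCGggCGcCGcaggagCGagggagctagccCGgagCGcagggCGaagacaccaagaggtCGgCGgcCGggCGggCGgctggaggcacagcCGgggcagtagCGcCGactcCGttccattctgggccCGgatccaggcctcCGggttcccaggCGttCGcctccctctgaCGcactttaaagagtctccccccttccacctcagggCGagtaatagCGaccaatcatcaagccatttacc
Meis2: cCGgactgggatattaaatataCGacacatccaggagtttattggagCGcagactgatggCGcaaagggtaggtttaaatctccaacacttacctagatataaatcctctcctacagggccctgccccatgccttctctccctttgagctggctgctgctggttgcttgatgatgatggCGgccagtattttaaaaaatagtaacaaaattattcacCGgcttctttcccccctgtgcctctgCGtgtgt
Emx2 lies on the plus strand and Meis2 on the minus strand. The Emx2 sequence held 24 CpG and was 67.2% G or C. The Meis2 sequence held 7 CpG and was 47.6% G or C. At least as many CpG were found in 12.0% of the 32851 promoters of the table for Emx2 and in 46.3% for Meis2. The Emx2 promoter is thus among the CpG-rich promoters of the table, while that of Meis2 is close to the median of 6. The Meis2 window is that of 1 of the gene's starts. Among 18 related genes of the EMX and TALE families, 10 had a promoter in the table, with 2 to 30 CpG, the most in Emx1, the sister gene of Emx2. The motif TGACAG, the core of MEIS sites, and the motif TAATTA, a core of homeodomain sites, were searched on both strands, and neither contains the other. Neither sequence held either motif, against 15.9% and 4.84% of all promoters. Since the table and the lists are in different builds, these sequences were not placed against the events.

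All 20 events were listed as higher in WT, 12 for H3K4me3, 5 for H3K27ac and 3 for H3K36me3, and none in either window was higher in KO. Among all listed events, the share higher in WT was 88.2% for H3K4me3, 17.5% for H3K27ac and 66.2% for H3K36me3. For H3K36me3 the authors made the WT and KO lists with different software (GEM and GPS), so that share sets unlike lists against each other. The direction of the H3K4me3 events is therefore that of most of their list, whereas the H3K27ac events belong to the smaller list of that mark. The rule used these directions, so nothing is read from the counts. Places with no listed event were not necessarily alike in both genotypes, since the lists hold only events past the authors' threshold.

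At Emx2, H3K4me3 formed a compact group of 4 events in which KO had far fewer reads than WT. Summed over the group, 6157.9 WT reads stood against 499.8 scaled KO reads, that is KO reads multiplied by the software to match WT. The ratio of WT to KO was 12.3, with a 95% counting interval of 11.6 to 13.2. In other words, KO had 8.12% of the WT reads on the scale of the list.

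Single Emx2 events differed in both level and ratio. At 59532464 WT had 1725.3 reads and KO 144.5, a ratio of 11.9 (10.6 to 13.5). At 59533683 the values were 1527.1 and 169.7, a ratio of 9.00 (8.02 to 10.1). These 2 events make up the lower side of the group, and the smaller ratio goes with the larger number of KO reads. The event with most reads, at 59534389, held 2109.8 of WT against 146.3 of KO, a ratio of 14.4 (12.8 to 16.3). At 59535437, the outermost event, WT had 795.7 reads and KO 39.3, a ratio of 20.2 (16.2 to 25.7). The largest ratio thus lay at the downstream edge of the group, where WT itself had the fewest reads. In the list of 5542 WT events, 32 had more reads than the strongest Emx2 event and 241 had a larger ratio than the outermost one. On chromosome 19 alone, with 380 such events, between 4 and 15 had a larger ratio than each of the 4.

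H3K27ac at Emx2 was listed at 2 places within the H3K4me3 group and differed far less between genotypes. At 59532735, 271 bp from the nearest H3K4me3 event, WT had 699.4 reads and KO 296.3, a ratio of 2.36 (2.05 to 2.72). At 59534671, 282 bp from the strongest H3K4me3 event, WT had 873.2 reads and KO 272.3, a ratio of 3.21 (2.78 to 3.71). Together the H3K27ac ratio was 2.77 (2.50 to 3.06), below that of H3K4me3. By reads these were strong events, with 60 and 22 of the 1765 WT events of the mark above them. By ratio they were ordinary or low, with 1553 and 1108 above them.

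H3K36me3 at Emx2 was listed at 2 places on the higher-coordinate side of the H3K4me3 group, which for a gene on the plus strand is downstream. At 59538466, 3029 bp beyond the last H3K4me3 event, WT had 149.0 reads and KO 17.0, a ratio of 8.76 (4.64 to 18.7). At 59539811, 4374 bp beyond it, WT had 72.1 reads and KO 2.2 scaled reads, a ratio of 32.8. The latter rests on 1.30 unscaled KO reads, and its interval ran from 7.38 to 1699. Pooled, the ratio was 11.5 (6.49 to 24.1), so this mark was lower in KO by a factor that its few reads fix only loosely. The 2 events had a −log10 q of 6.93 and 2.91, the latter close to the authors' threshold of 2.

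**Figure D1:**
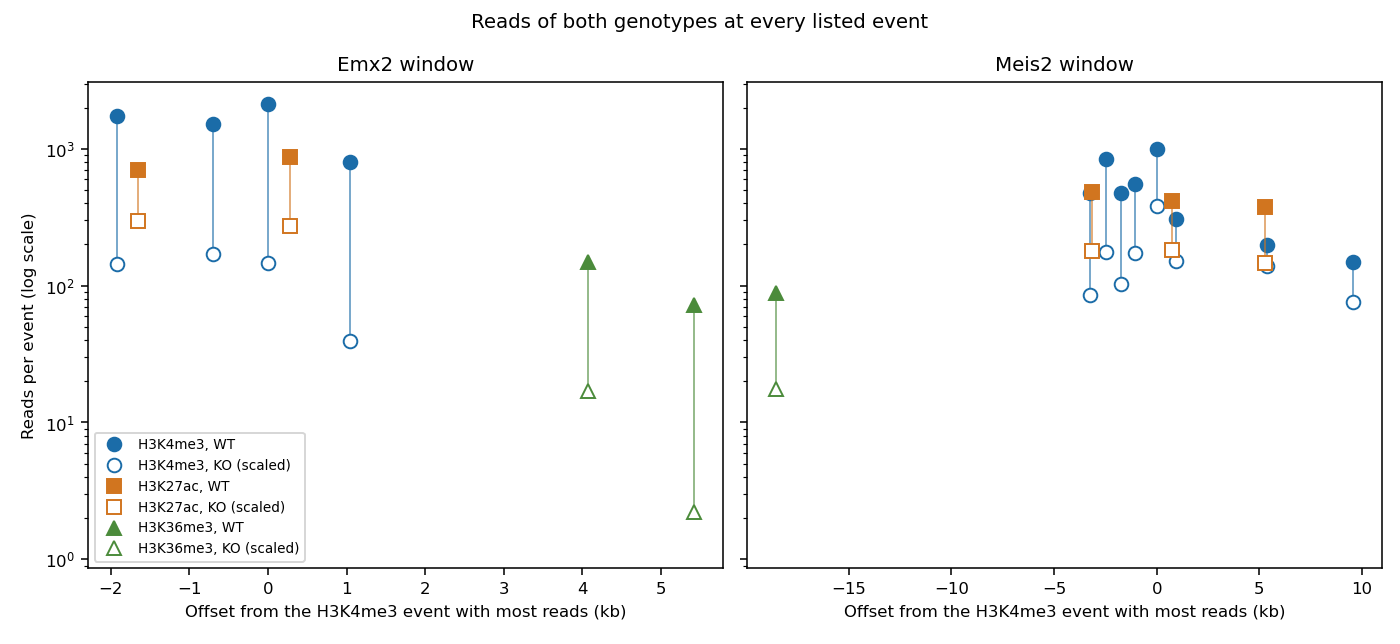
Reads per event (log axis) in WT (filled) and KO scaled to WT (open) against the offset in kb from the H3K4me3 event with most reads in each window. H3K4me3 is shown as circles, H3K27ac as squares and H3K36me3 as triangles. The 4 Emx2 H3K4me3 events fall from between 795.7 and 2109.8 reads to between 39.3 and 169.7, while at all 8 Meis2 H3K4me3 events the WT and KO points lie closer to each other.

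Beyond the lower edge of the Emx2 window lay more H3K36me3 events of the same direction. Between 59502036 and 59504565, 6 events over 2530 bp summed to 519.0 WT reads against 52.7 of KO, a ratio of 9.85 (6.86 to 14.7). Their ratios ranged from 7.76 to 11.8, and the last of them was 27.9 kb from the first H3K4me3 event, on the upstream side. In the RefSeq table the gene next to Emx2 on that side is its antisense gene Emx2os, and the next on the other side is the long noncoding gene 2700089I24Rik. Which of these genes any event belongs to was not examined, because no gene annotation in mm9 was used. The nearest events higher in KO, both of H3K27ac, were 441 and 604 kb away.

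At Meis2, H3K4me3 spread over a longer stretch with a smaller difference. Its 8 events ran from 115889062 to 115901882, and their sum was 3999.0 WT reads against 1288.2 scaled KO reads. The ratio was 3.10 (2.96 to 3.26), so KO had 32.2% of the WT reads. Scaled KO reads per event overlapped between the loci, from 76.5 to 382.8 at Meis2 and from 39.3 to 169.7 at Emx2. Mean WT reads per event were 499.9 at Meis2 and 1539 at Emx2. The loci thus differed more in WT reads than in KO reads. The 8 ratios fell in nearly the order of position, from the lower to the higher coordinate.

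The 3 events at the lower end had the largest ratios. At 115889062 WT had 473.4 reads and KO 85.7, a ratio of 5.52 (4.65 to 6.58). At 115889819 the reads were 841.5 and 175.9, a ratio of 4.78 (4.24 to 5.42). At 115890559 they were 476.3 and 102.7, a ratio of 4.64 (3.95 to 5.46). The intervals of these 3 overlap, so their order among themselves is within counting error. For a gene on the minus strand, they lie on the downstream side of the group.

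Ratios were smaller further along. The event at 115891243 held 557.3 WT reads against 174.4 of KO, a ratio of 3.20 (2.80 to 3.65). At 115892302, the Meis2 event with most reads in both genotypes, WT had 998.5 and KO 382.8, a ratio of 2.61 (2.38 to 2.86). At 115893262 the reads were 306.0 and 151.1, a ratio of 2.03 (1.73 to 2.37). The highest H3K4me3 peak of the locus therefore differed less than its lower-coordinate flank, where WT had fewer reads. After a gap of 4398 bp the event at 115897660 had 197.0 and 139.1 reads, a ratio of 1.42 (1.18 to 1.70). The last, at 115901882, had 149.0 and 76.5, a ratio of 1.95 (1.55 to 2.45). These 2 outlying events had a −log10 q of 2.86 and 3.87, near the authors' threshold. Relative to the background reads of each genotype their ratios were 0.880 (0.732 to 1.06) and 1.21 (0.964 to 1.52), so the direction of the former turned.

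When the 8 events were divided along the locus, a division chosen after their values were seen, the first 3 gave a ratio of 4.92 (4.52 to 5.35). The next 3 gave 2.63 (2.46 to 2.81) and the last 2 gave 1.60 (1.39 to 1.85). With each genotype's reads divided by its own background reads, a scale described further on, the same sections gave 3.05 (2.81 to 3.33), 1.63 (1.53 to 1.75) and 0.997 (0.865 to 1.15), so the last 2 events then showed no difference beyond counting error. The first 6 events held 91.3% of the WT reads. Placed in the whole list, 944 of 5542 events had a larger ratio than the highest of Meis2 and 5498 a larger one than the lowest. On chromosome 2, 78 to 210 of the 212 WT events had a larger ratio, and the median there was 3.81. No Meis2 event was thus among the 78 largest ratios of its chromosome, while each of the 4 Emx2 events lies above all but 15 or fewer of the 380 of theirs.

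H3K27ac at Meis2 was listed at 3 places, each within 235 bp of an H3K4me3 event. At 115889156, 94 bp from the first H3K4me3 event, WT had 483.4 reads and KO 179.5, a ratio of 2.69 (2.25 to 3.24). At 115893027 the reads were 418.6 and 181.3, a ratio of 2.31 (1.92 to 2.78). At 115897600, 60 bp from the outlying H3K4me3 event with the smallest ratio, they were 376.0 and 146.5, a ratio of 2.57 (2.10 to 3.15). The 3 intervals overlap, so H3K27ac showed no order along the locus beyond counting error, unlike H3K4me3. Pooled, the ratio was 2.52 (2.26 to 2.81).

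H3K36me3 was listed once at Meis2, at 115873765. This lies 15297 bp below the lowest H3K4me3 event, downstream for a gene on the minus strand. WT had 88.7 reads and KO 17.6, a ratio of 5.04 (2.72 to 11.3). Inside both windows the mark was listed apart from the H3K4me3 group, on its downstream side, but the 6 events just outside the Emx2 window lay upstream. The nearest events outside the window were 272 kb away for those higher in KO and 535 kb for those higher in WT. In the RefSeq table Meis2 overlaps the long noncoding gene G630016G05Rik, and reads of the marks cannot be assigned to either gene.

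**Figure D2:**
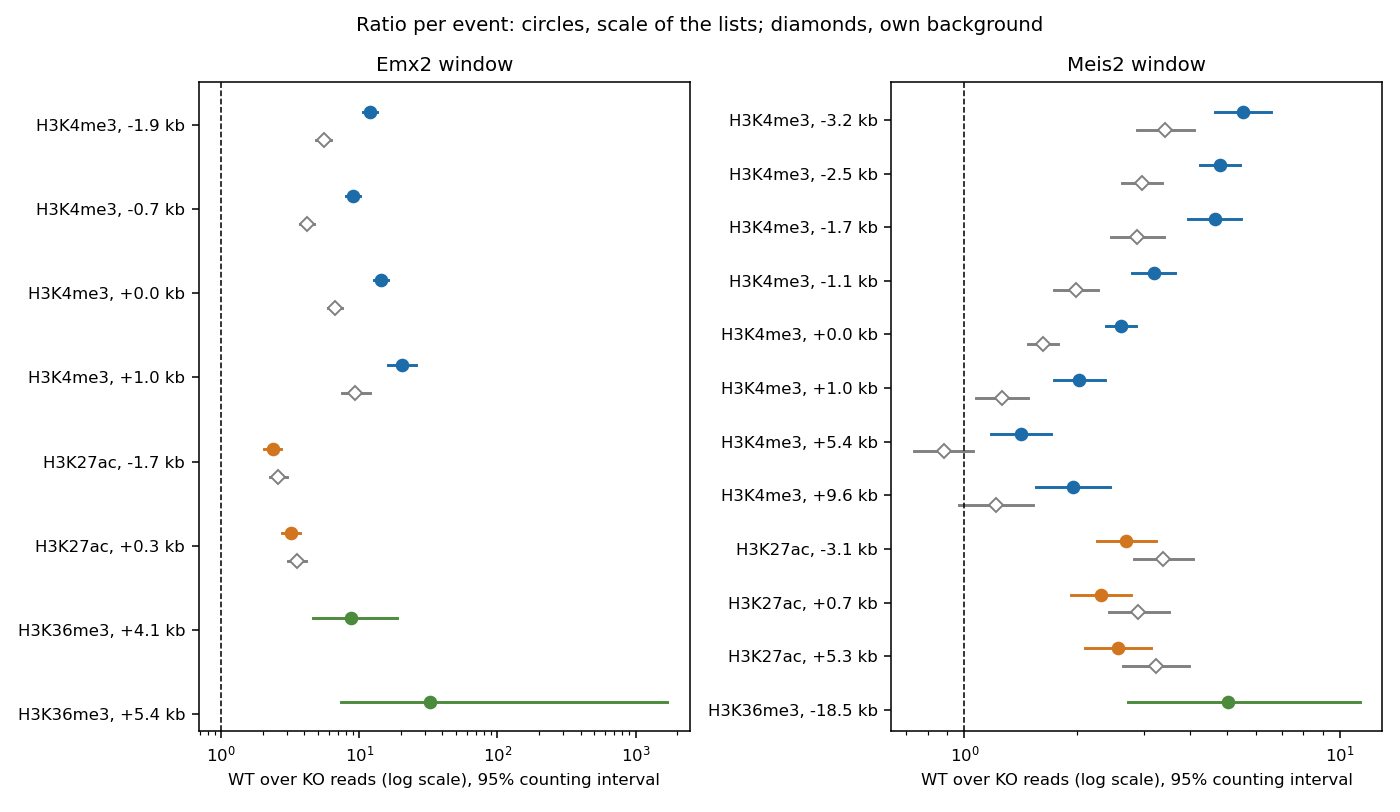
Ratio of WT to KO reads for each of the 20 events (log axis, dashed line at 1), with bars for the 95% counting interval. Coloured circles use the scale of the lists and grey diamonds the reads of each genotype over its own background, a scale not made for H3K36me3. Labels give the mark and the offset in kb. The Meis2 H3K4me3 ratios fall from 5.52 to 1.42 along the locus and then stand at 1.95, and 1 diamond lies below the dashed line.

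Most of the H3K4me3 events lay close to an H3K27ac event. Of the 12 H3K4me3 events, 9 lay within 1 kb of an H3K27ac event of the same direction, 4 of 4 at Emx2 and 5 of 8 at Meis2. In the whole WT list the share was 7.07%. All 5 H3K27ac events had an H3K4me3 event within 1 kb, against 13.2% of their list. No H3K36me3 event lay within 1 kb of either mark, against 5.96% with H3K4me3 in the whole list. These events are few and close together, so they are not independent of each other, and no test was made. The windows were also chosen from these same lists, so the shares are descriptions.

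The clusters differed in width as well as in ratio. Events of 1 list at most 5 kb apart were joined, and the width was counted from the first to the last event. The Emx2 H3K4me3 cluster was 2974 bp wide with 4 events, spaced 706 to 1219 bp apart. Of the 2354 WT clusters of this mark, 126 were wider, 152 had more events and 24 had more reads. A larger ratio was found in 179 of the 2354 clusters, and in 9 of the 425 with at least 4 events. The gene was chosen from these reads and widths, so its ranks are descriptions.

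The Meis2 H3K4me3 cluster was 12821 bp wide with 8 events, spaced 684 to 4398 bp apart, and no WT cluster of the mark was wider. That rank rests on the 2 outlying weak events. By ratio, 1120 of the 2354 clusters lay above it. With joining at 2 kb the cluster ended at 115893262, was 4201 bp wide with 6 events, and 14 of 2408 clusters were wider. Its ratio was then 3.41 (3.23 to 3.59). With joining at 10 kb its width stayed at 12821 bp and 10 of 2287 clusters were wider. The Emx2 cluster kept its 4 events and 2974 bp at all 3 distances.

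Clusters of the other marks were narrower or thinner. H3K27ac at Emx2 spanned 1937 bp with 2 events, and 239 of 1284 WT clusters were wider. At Meis2 it spanned 8445 bp with 3 events spaced 3871 and 4573 bp apart, and 29 were wider, but with joining at 2 kb it fell into 3 single events. H3K36me3 at Emx2 spanned 1346 bp, with 357 of 1705 clusters wider, and at Meis2 it was a single event.

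**Figure D3:**
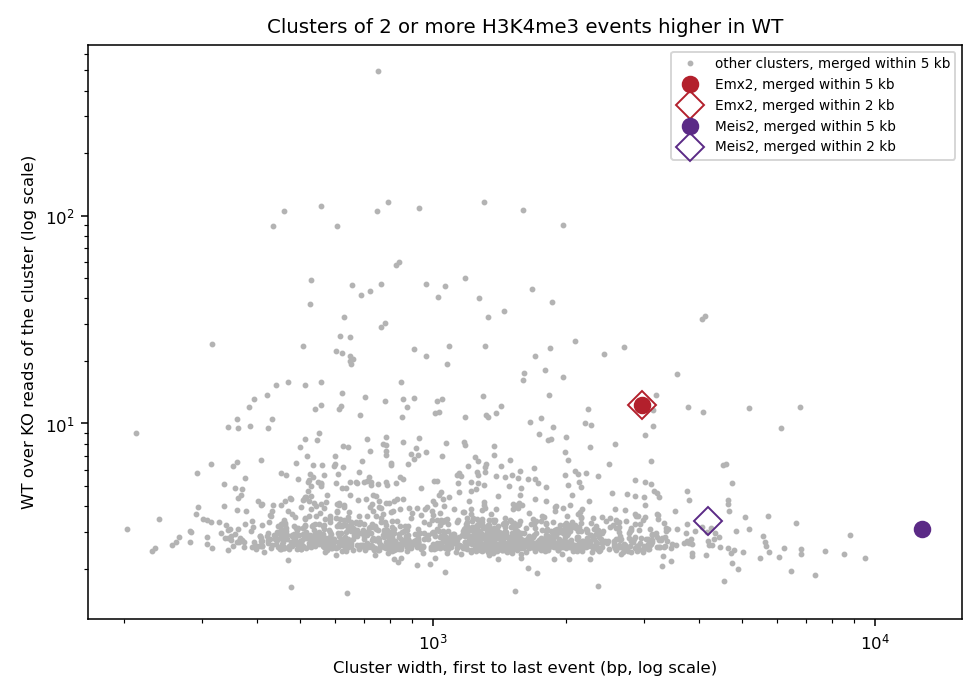
Width in bp (log axis) against the WT to KO ratio (log axis) of the WT H3K4me3 clusters with at least 2 events. Grey points are the other clusters joined within 5 kb; the Emx2 and Meis2 clusters are shown at 5 kb (filled) and 2 kb (open). Emx2 lies at 2974 bp and a ratio of 12.3 under both distances, and Meis2 moves from 12821 to 4201 bp while its ratio moves from 3.10 to 3.41.

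Other clusters resembled each of the 2. Likeness was the summed absolute difference in log2 width, log2 number of events and log2 ratio, over 1570 other WT H3K4me3 clusters of at least 2 events. Nearest to Emx2 was the cluster at 130443114 to 130446898 on chromosome X, with 4 events and a ratio of 12.0, at a likeness of 0.38. The next were at 11935683 to 11937925 on chromosome 11 (4 events, ratio 11.7) and at 14128770 to 14131919 on chromosome 18 (5 events, ratio 11.6). Emx2 thus had close counterparts. Nearest to Meis2 was the cluster at 52202223 to 52211001 on chromosome 6, 8779 bp wide with 9 events and a ratio of 2.91, at a likeness of 0.81. Clusters at 44286739 to 44296239 on chromosome 9 (ratio 2.24) and at 44941910 to 44950451 on chromosome 17 (ratio 2.35) followed, at 1.10 and 1.41. No genes were assigned to these clusters.

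The size of the H3K4me3 difference depended on how the genotypes were scaled. For H3K27ac and H3K4me3 the lists give an expected signal per genotype and chromosome, called background reads here although it is not defined in the sources used here. For H3K4me3 it was 201.4 in WT and 202.9 in KO on chromosome 19, and 108.0 and 145.7 on chromosome 2. With each genotype's unscaled reads divided by its own background, the Emx2 H3K4me3 ratio was 5.72 (5.36 to 6.10) and that of Meis2 1.93 (1.84 to 2.03). Both loci remained higher in WT in sum, and Emx2 remained above Meis2, with intervals that did not overlap on either scale. The H3K27ac ratio rose from 2.77 to 3.05 (2.76 to 3.38) at Emx2. At Meis2 it rose from 2.52 to 3.17 (2.85 to 3.53), outside its interval on the scale of the list. The order of the marks at Meis2 therefore turned: H3K4me3 had the larger ratio on the scale of the list, and H3K27ac on that of background. At Emx2 H3K4me3 had the larger ratio on both.

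Levels were also taken in units of these background reads. As that signal is undefined, a value below 1 is not read as absence of a mark. For H3K4me3 in KO it was 202.9 on chromosome 19 and 145.7 on chromosome 2, so levels at Emx2 and Meis2 are in unequal units. At Emx2, WT H3K4me3 reached 10.5 times background at 59534389 and KO 1.57 times. KO stood at 1.55 times at 59532464 and 1.82 times at 59533683. At 59535437 KO was at 0.42 times background, against 3.95 in WT. No Emx2 event of this mark was thus above 1.82 times background in KO. At Meis2 the strongest event had 9.25 times background in WT and still 5.71 times in KO. The other 7 Meis2 events lay between 1.38 and 7.79 times in WT and between 1.14 and 2.62 times in KO. H3K27ac in KO was below background at all 5 events, from 0.62 to 0.92 times, and between 1.99 and 2.98 times in WT. At 115897660 KO stood at 2.07 times background and WT at 1.82 times, and at 115901882 KO stood at 1.14 and WT at 1.38 times. The intervals of the ratio included 1 for both of these outlying events.

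**Figure D4:**
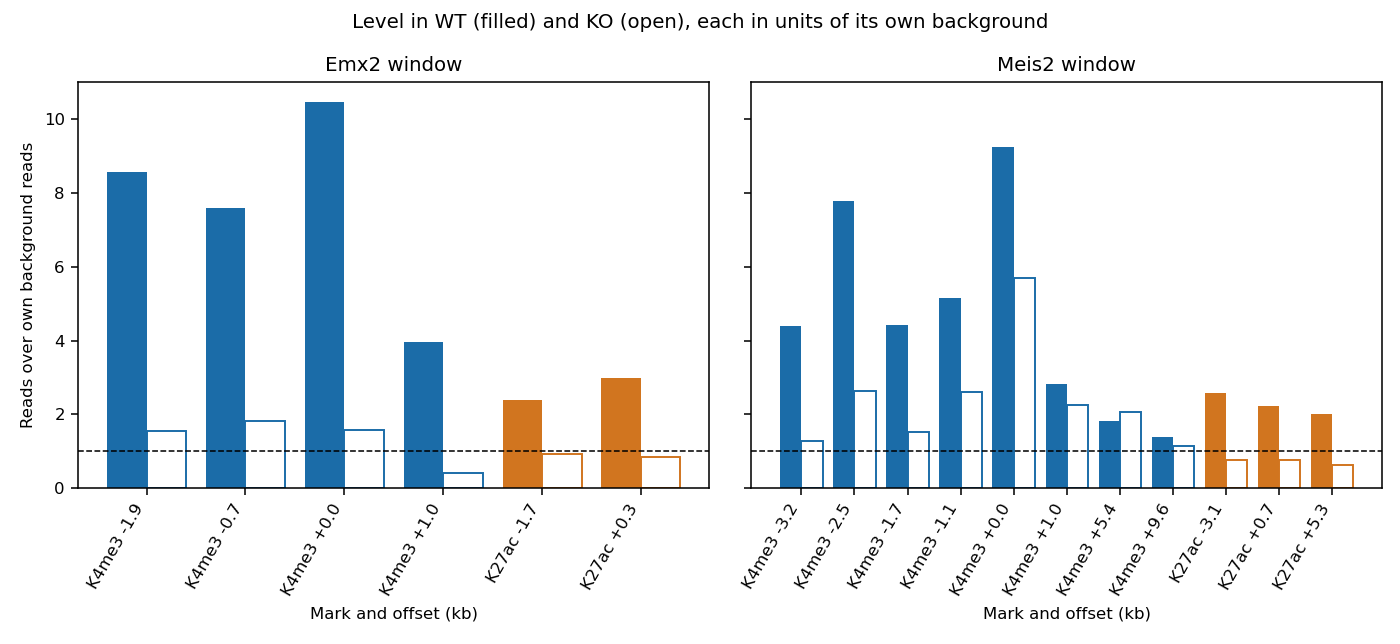
Reads over own background reads (linear axis from 0, dashed line at 1) for the 17 H3K4me3 (blue) and H3K27ac (orange) events, in WT (filled bars) and KO (open bars), labelled by mark and offset in kb. There are no error bars, since each bar is 1 value per genotype. KO H3K4me3 stays at or below 1.82 at Emx2. At Meis2 it is 5.71 at 1 event and between 1.14 and 2.62 at the others. KO H3K27ac is below 1 at all 5 events. Background reads differ between the chromosomes of the genes.

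The chromosomes of the 2 genes differed as a whole, and the part of this in the values was not tested. On chromosome 19, 98.2% of the 387 listed H3K4me3 events were higher in WT, with a median ratio of 2.76 on the scale of the list and 1.28 on that of background. On chromosome 2 the share was 78.8% of 269, with medians of 3.81 and 2.37. All 4 Emx2 events exceeded the median of chromosome 19. Of the 8 Meis2 events, the first 3 exceeded that of chromosome 2 and the other 5 lay below it. Within a mark and chromosome the 2 scales differ only by a constant factor. These positions are therefore the same on both scales by construction. For H3K27ac the median ratio of WT events was 5.49 on chromosome 19 and 3.69 on chromosome 2, and all 5 events of the windows lay below the median of their chromosome. The Dicer locus itself was not examined here.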

How the data were processed

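Alignment was to mm9 and TopHat 1.4 is named without its role, per the submitters' processing notes. Each of the 6 lists, 1 per mark and direction, was made by the authors with GPS (both H3K27ac lists and H3K36me3 of KO) or GEM (the others), per the file headers and names. Their versions were not found in these sources. Pooling of replicates is named for H3K27ac only. By the same names, noControl applies to H3K4me3 and H3K36me3 only, and dnase to H3K4me3 and H3K27ac only. The names do not explain these terms. Comparisons across marks are therefore between lists whose names give different settings. Each deposited event has an estimated count for the higher genotype, a scaled signal for the other, their fold ratio, an expected signal, −log10 q and p values starting at a −log10 q of 2 and limited at 999, and shape scores. The fold ratio, the p values and the shape scores were not used, and q values only filtered or described events.

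The factor behind the scaled signal was recovered as the step from 0.3 to 3 (every 0.0005) that left most control values whole multiples within 0.06, after subtracting the share that any step gives. In the WT lists, which hold all events described, the KO factor was 0.461 for H3K4me3, 1.09 for H3K27ac and 1.70 for H3K36me3, with 54.2%, 93.4% and 92.4% of values whole. By this share the H3K4me3 factor is the least certain. In the KO lists the WT factor was 2.15 for H3K4me3, 0.8495 for H3K27ac and 0.575 for H3K36me3. The 2 factors of H3K27ac are the furthest from being reciprocal. An error in a factor moves the intervals and the background scale, not the ratios of the list. Ratios have exact Clopper-Pearson 95% intervals from both unscaled read numbers, rounded. They cover counting error only, and they may be too narrow because no molecular identifiers mark repeated molecules. Library depth is unknown. The steps ran in Python 3.11.15 with SciPy 1.17.1, pandas 2.3.3, matplotlib 3.10.9 and NumPy 2.4.6 and were tested on simulated data.

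The genes, windows and lists of related genes were chosen with earlier results of these data known. Every event of the windows was counted. Each was described if it had most reads, the largest or smallest ratio or an outermost position, or if its mark had at most 6 events in the window; the other Meis2 H3K4me3 events were added after their values were seen. Alternatives were another scale, 1 read added, a stricter q, at least 50 reads, medians, a window 20 kb wider on each side, and joining at 2 or 10 kb.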

Additional observations from a re-analysis of the deposited data

How the results depend on the processing

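All events came from lists of WT excess, so a ratio above 1 was fixed in advance under every alternative except own background for H3K4me3. On own background none of the 1765 H3K27ac events of the WT list fell below 1, against 607 of 5541 (11.0%) for H3K4me3. On that scale the 4 pooled ratios of H3K4me3 and H3K27ac were above 1, with those of 5.72 for H3K4me3 at Emx2, 1.93 for H3K4me3 at Meis2 and 3.17 for H3K27ac at Meis2 lying outside the counting intervals of the main values. The single Meis2 H3K4me3 event at 115897660 turned to 0.880 on that scale, and the last 2 Meis2 events together gave 0.997. The median of single events gave 13.2 and 2.90 for H3K4me3 at Emx2 and Meis2. At a −log10 q of at least 5, which by construction leaves fewer events, Meis2 H3K4me3 had a ratio of 3.41 and a width of 4201 bp, and Emx2 H3K36me3 kept 1 event, with a width of 1 bp. Joining at 2 kb gave a width of 4201 bp for Meis2 H3K4me3 and 1 bp, a single event, for Meis2 H3K27ac. The Emx2 window widened by 20 kb held 8 H3K36me3 events higher in WT in place of 2, and no event higher in KO. The other 70 alternative values of pooled ratios, counts and widths stayed within the interval of the main value or within 1.5 times of it. Many of them could not move. All 20 events had at least 50 reads, so that minimum removed none, and a stricter filter cannot add events higher in KO. Adding 1 read moved no pooled or single ratio beyond its interval. No background scale was made for H3K36me3, whose events had the fewest reads, because its expected signal varied within chromosomes. At Emx2 its events had 149.0 and 72.1 WT reads against expected signals of 89.5 and 46.3. At Meis2 the values were 88.7 and 47.0. No paired analysis was possible because no list separates replicates, which also prevented leaving out any of them. Related genes were compared by promoter sequence only, and their events were not counted, for want of an annotation in mm9.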
